A study of Mus musculus with 11 samples.

Results

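The nuclear genes of the mitochondrial respiratory chain were examined in PN1a and PN1b lesions. They were taken as probe sets annotated to a single gene whose symbol begins with Nduf (complex I), Uqcr (complex III), Cox followed by a digit of 4 to 8 (complex IV) or Atp5 (complex V), or is Sdha, Sdhb, Sdhc or Sdhd (complex II) or Cycs (cytochrome c). This gave 99 probe sets of 72 genes among the 12422 probe sets tested, which name 8251 genes. Complex I had 38 probe sets of 29 genes, its assembly factors 4 of 2 genes, complex II 4 of 4 genes, complex III 7 of 7 genes, cytochrome c 1, complex IV 23 of 15 genes and complex V 22 of 14 genes. A further 10 probe sets carried several symbols with a matching one among them and were not counted as members.

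Affymetrix MG_U74Av2 arrays were hybridized with RNA of whole glands that carried outgrowths of the PN1a line (5 samples) or of the PN1b line (6 samples), taken 8 weeks after transplantation. Both lines are hyperplastic outgrowths of Trp53-/- Balb/c mammary epithelium from contralateral glands of the same mouse, kept by serial transplantation into cleared fat pads of young wild type Balb/c females, so both groups share the p53 loss and each line stands for 1 lineage. The tissue was the gland and not sorted cells, so a level is that of p53-null epithelium together with the fat, vessels and immune cells of a wild type host. In such samples fewer cells of a type and less RNA per cell cannot be told apart.

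Complexes I and II pass electrons from NADH and succinate to ubiquinone, complex III passes them on to cytochrome c, and complex IV hands them to oxygen. The proton gradient that complexes I, III and IV build drives complex V, the ATP synthase. Every cell with mitochondria uses these genes, and levels are high in heart, skeletal muscle and brown fat. Some subunits of complex IV exist as isoforms of different genes that are used in different tissues.

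The values are linear intensities, and log2 fold changes are PN1a over PN1b. Sample medians lay between 8.57 and 8.94 for PN1a and between 8.88 and 9.51 for PN1b. The samples were not uniform. For the 18S RNA controls PN1a 1 and PN1a 2 had intensities of 157 and 211, while the remaining PN1a samples had 6.95 to 17.96 and PN1b 5.68 to 14.3. The summed intensity of 16 probe sets of luminal epithelial genes was 297 for PN1a 1 and 667 for PN1a 2, while the remaining PN1a samples had 1633 to 1979 and PN1b 1162 to 1793. For Krt8, a keratin that defines luminal cells, PN1a 1 had 52.7 and PN1a 2 had 187, while the remaining PN1a samples had 298 to 443 and PN1b 307 to 657. The brighter probe set of Krt18, also of this list, had 73.0 in PN1a 1 and 211 in PN1a 2. The remaining PN1a samples had 452 to 653 and PN1b 639 to 936. Some other genes of the list were not below PN1b in PN1a 1 and PN1a 2. Gata3 had 39.9 and 16.8 there, against 14.2 to 23.8 in PN1b. Muc1 had 9.19 and 31.8 against 9.06 to 16, and Krt19 17.9 and 22.3 against 1.66 to 26.4. For 23 macrophage probe sets the sum ran from 441 to 1638 in PN1a, and from 158 to 359 in PN1b. The endings of the sample titles fall into 3 sets, which the labels do not explain. All 5 PN1a samples and PN1b 5 and PN1b 6 are in set 1, PN1b 2 is set 2, and PN1b 1, PN1b 3 and PN1b 4 are set 3. The titles of PN1b 1 to PN1b 4 have the form of number ranges, and whether these are pools of mice is not given.

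Muscle and brown fat, tissues with high levels of these genes, were followed through marker lists. No probe set of the muscle list exceeded 61.8 in any sample, and none of the brown adipocyte list 14.6. The muscle actin gene Acta1 reached 3.58, both probe sets of muscle creatine kinase, Ckm, stayed at or below 7.57, and both of Ucp1, the uncoupling protein of brown fat, at or below 5.50. Summed over 30 skeletal muscle probe sets, PN1a had 185 to 211 and PN1b 167 to 207, and summed over 7 brown adipocyte probe sets, PN1a had 29.8 to 38.0 and PN1b 26.1 to 42.7. Summed over 17 adipocyte probe sets, PN1a had 409 to 584 and PN1b 591 to 941, with no overlap. PN1b 5 and PN1b 6 lay nearest to PN1a, at 591 and 647. The only probe set of the list called in the test below, that of Lpl, had 20.4 to 118 in PN1a and 170 to 229 in PN1b. The gap between the sums is narrower than that of Lpl alone, so it does not show a difference of the other adipocyte genes. The fat markers Fabp4 and Adipoq were dim, at or below 6.82 and 13.4.

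In PN1a lesions as compared to PN1b, 2 of the 99 respiratory chain probe sets fell and 0 rose (limma, adjusted p below 0.05 with a change of 1.5-fold or more). The 2 were Ndufb9 of complex I and a dim probe set of Cox6b2 of complex IV. Over all probe sets 1.62% were called lower and 0.869% higher, so the 2.02% of members called lower is near the background. Complexes II, III and V, cytochrome c and the assembly factors had no called member. At an unadjusted p under 0.05, 20 members were lower, where the share over all probe sets was 11.3%, and 6 were higher, where that share was 7.65%. Under the methods' t-test with p under 0.01 and a 1.5-fold change, 5 members were lower, beside 3.56% of all probe sets, and 1 was higher, beside 2.18%. Most differences were small, with 85 of the 99 members within 1.5-fold in either direction. The median log2 fold change of the members was -0.10, with quartiles of -0.35 and 0.20, against -0.01 over all probe sets with quartiles of -0.31 and 0.24. Among probe sets with a mean intensity of at least 30 the median was -0.075 for members and -0.083 for all. This limit was chosen after the values were seen. At a limma unadjusted p under 0.05, 29.4% of these members and 18.9% of all such probe sets were lower. The shares higher were 1.96% and 8.62%. With PN1a 1 and PN1a 2 left out the median of the members was -0.14 and Cox6b2 alone was called.

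**Figure D1:**
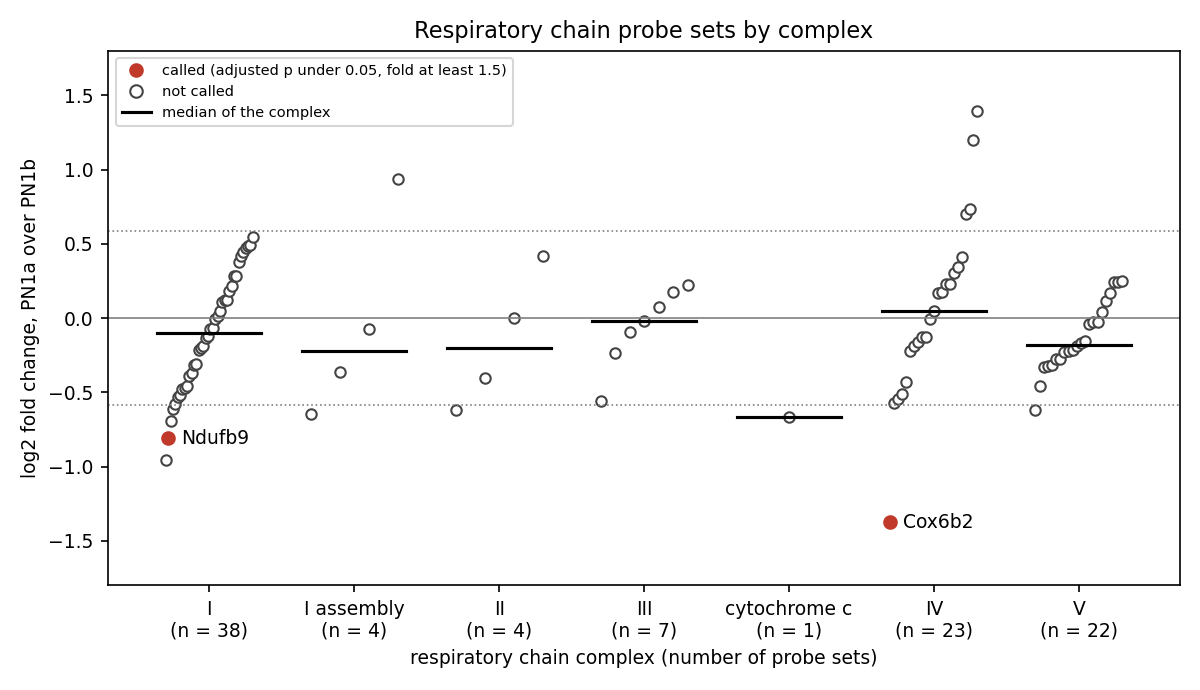
Log2 fold change (PN1a over PN1b) of each respiratory chain probe set, by complex, with circles for single probe sets, filled where called, bars for the median of a complex and dotted lines at 1.5-fold. The 2 called probe sets, Ndufb9 and Cox6b2, lie below the lower line, and 85 of the 99 probe sets lie between the lines.

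Every PN1a sample lay below every PN1b sample for 8 members, against 2.38% of all probe sets, and above every PN1b sample for 0 members, against 1.58% of all probe sets. The 8 make up 8.08% of the members. Without PN1b 5 the count was 15 of 99, against 4.62% of all probe sets. With each array centred on its median it was 7 lower and 1 higher, against 2.10% and 2.05% of all probe sets. Among probe sets with a mean intensity of at least 30, a limit chosen after the values were seen, 9.80% of members and 5.13% of all probe sets lay wholly below PN1b. The 8 were Ndufb9, Ndufb11 and a dim probe set of Ndufa3 in complex I, Sdha in complex II, Cox6a1 and the called probe set of Cox6b2 in complex IV, and Atp5a1 and Atp5l in complex V. Of these, 6 did not pass the test, with adjusted p of 0.070 to 0.25. Their log2 fold changes lay between -0.33 for Atp5a1 and -0.62 for Atp5l and Sdha.

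**Figure D2:**
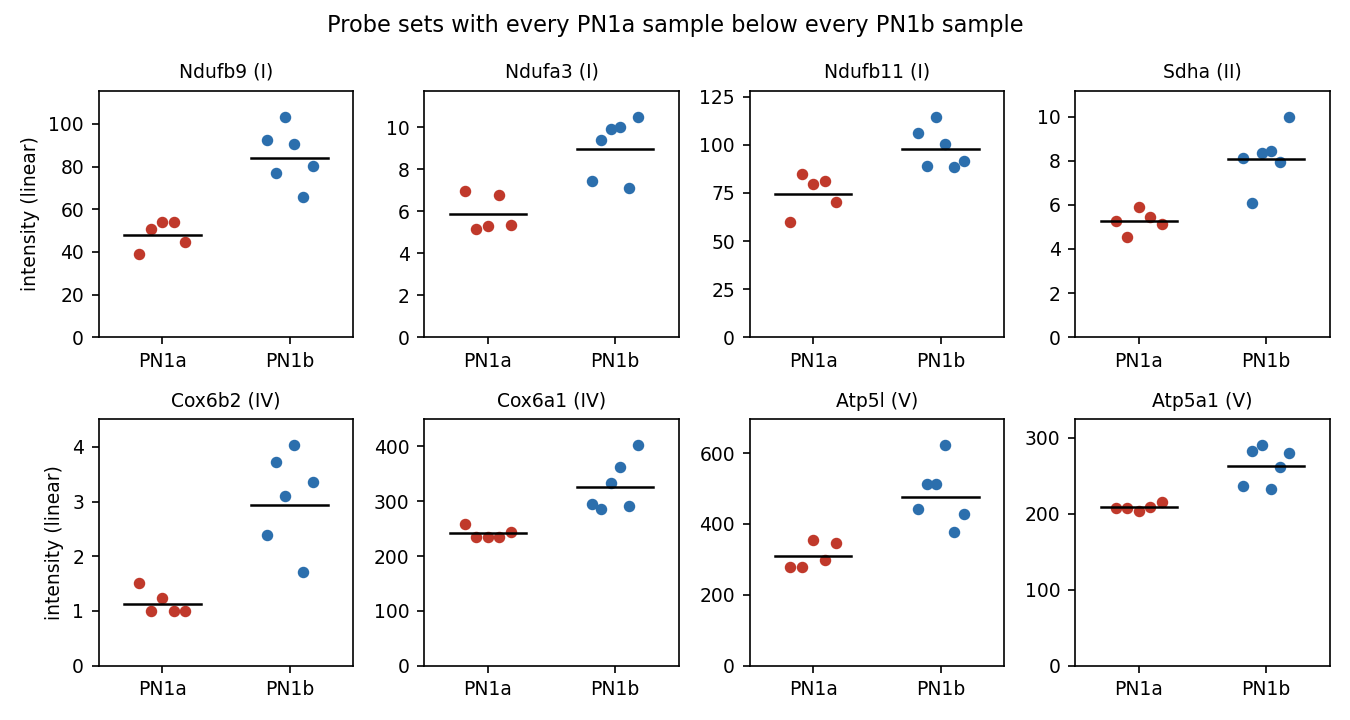
Linear intensity in each of the 5 PN1a samples (left) and 6 PN1b samples (right) for the 8 probe sets without overlap, with bars at the mean of the log2 values. Atp5a1 ran from 204 to 215 in PN1a and from 232 to 290 in PN1b, while Sdha, Ndufa3 and Cox6b2 stayed at or below 10.5 in every sample.

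The regions upstream of the genes without overlap are shown, apart from Ndufb9 and Atp5a1. Of the 72 member genes 59 matched RefSeq's table for GRCm38.p6, which gave 64 windows of the 250 bases before a gene's start. Capitals mark GCANGCG, the core of the GC-rich palindrome bound by the respiratory factor NRF1, CCGGAAG, the core bound by GABP and other ETS factors, and GGGCGG, the core of Sp1 sites. Each was searched on both strands, and overlapping matches on opposite strands were counted apart.
Ndufb11 (chrX:20617620-20617869, minus strand): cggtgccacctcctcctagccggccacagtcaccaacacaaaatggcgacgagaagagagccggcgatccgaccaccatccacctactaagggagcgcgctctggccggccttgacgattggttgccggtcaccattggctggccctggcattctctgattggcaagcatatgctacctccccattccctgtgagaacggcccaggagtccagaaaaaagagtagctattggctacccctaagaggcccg
Ndufa3 (chr7:3617123-3617372, plus strand): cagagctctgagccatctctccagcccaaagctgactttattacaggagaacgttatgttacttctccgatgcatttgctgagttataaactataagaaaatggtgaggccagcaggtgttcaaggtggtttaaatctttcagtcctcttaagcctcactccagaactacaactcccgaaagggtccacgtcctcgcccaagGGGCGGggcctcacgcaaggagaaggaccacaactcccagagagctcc
Sdha (chr13:74350241-74350490, minus strand): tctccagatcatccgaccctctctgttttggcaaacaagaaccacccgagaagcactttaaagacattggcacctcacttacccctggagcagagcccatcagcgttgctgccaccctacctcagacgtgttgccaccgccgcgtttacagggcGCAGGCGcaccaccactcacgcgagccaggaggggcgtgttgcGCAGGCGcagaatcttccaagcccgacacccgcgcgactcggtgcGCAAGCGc
Cox6a1 (chr5:115348959-115349208, minus strand): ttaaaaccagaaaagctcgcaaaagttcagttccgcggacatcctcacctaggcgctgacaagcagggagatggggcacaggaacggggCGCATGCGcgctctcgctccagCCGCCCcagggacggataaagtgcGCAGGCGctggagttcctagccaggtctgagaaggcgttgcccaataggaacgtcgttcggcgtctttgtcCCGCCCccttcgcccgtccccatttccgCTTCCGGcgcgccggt
Cox6b2 (chr7:4753095-4753344, minus strand): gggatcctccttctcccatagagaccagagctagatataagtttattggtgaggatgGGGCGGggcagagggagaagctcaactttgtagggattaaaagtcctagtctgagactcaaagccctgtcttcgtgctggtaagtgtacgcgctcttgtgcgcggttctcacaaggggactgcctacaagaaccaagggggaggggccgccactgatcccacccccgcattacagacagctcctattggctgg
Atp5l (chr9:44920743-44920992, minus strand): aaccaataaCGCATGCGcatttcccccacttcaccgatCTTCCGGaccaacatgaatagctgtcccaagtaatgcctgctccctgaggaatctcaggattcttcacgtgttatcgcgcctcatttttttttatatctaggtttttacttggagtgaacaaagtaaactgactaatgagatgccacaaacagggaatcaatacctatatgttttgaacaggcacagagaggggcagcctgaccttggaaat
The window of Sdha held 3 matches to GCANGCG, and that of Cox6a1 held 3 of them with 1 of CCGGAAG and 2 of GGGCGG. Atp5l had 2 matches to GCANGCG, which overlap, and 1 to CCGGAAG, and Ndufa3 and Cox6b2 each had 1 to GGGCGG. The window of Ndufb11 held none of the 3. Matches to GCANGCG were found in 24 of the 64 member windows (37.5%) and in 13.8% of all 32851 windows, CCGGAAG in 12 (18.8%) and in 6.91%, and GGGCGG in 25 (39.1%) and in 32.7%. AAGGTCA, the element of the estrogen related receptors, was found in 2 (3.13%) and in 4.08% of all windows. These are matches of letters, and no binding was measured.

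The called member of complex I was Ndufb9, an accessory subunit of the membrane arm. Its intensity was 39.1, 50.6, 54.2, 53.8 and 44.6 in PN1a 1 to PN1a 5, against a low of 65.8, a median of 85.5 and a high of 103 in PN1b. All PN1a values lay below the lowest PN1b value, that of PN1b 5. On the log2 scale Ndufb9 averaged 5.59 ± 0.20 in PN1a (SD, n = 5) and 6.39 ± 0.23 in PN1b (SD, n = 6). It was 1.75-fold lower in PN1a, at -0.81 on the log2 scale (SE 0.18, limma adjusted p = 0.031). Its adjusted p was 0.019 to 0.083 with 1 sample left out, and it was above 0.05 without any of PN1a 1, PN1a 3, PN1a 4, PN1a 5, PN1b 1, PN1b 3 or PN1b 4.

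Ndufa3, another accessory subunit, had 2 probe sets. The brighter had 133, 117, 113, 103 and 104 in PN1a against a low of 123, a median of 166 and a high of 187 in PN1b, with PN1a 1 above the lowest PN1b samples (log2 fold change -0.47, adjusted p = 0.16). The dimmer had 6.96, 5.13, 5.31, 6.77 and 5.35 in PN1a against 7.11 to 10.5 in PN1b, with no overlap (-0.61, adjusted p = 0.086). Ndufb11, also accessory, had 59.7, 85.0, 79.9, 81.0 and 70.5 in PN1a, against a low of 88.6, a median of 96.1 and a high of 115 in PN1b. Its groups did not overlap, but its log2 fold change was only -0.39 (adjusted p = 0.22).

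No core subunit of complex I was called. Ndufs1, which carries iron-sulfur clusters, had 52.7, 28.8, 45.9, 41.6 and 34.3 in PN1a and 38.6 to 88.6 in PN1b (log2 fold change -0.69, adjusted p = 0.14). Ndufv1, which binds NADH, had a log2 fold change of 0.11, and Ndufs3, of the peripheral arm, of -0.07. Ndufv2, the partner of Ndufv1 in the NADH-binding module, had 152, 146, 129, 85.6 and 84.4 in PN1a against a low of 58.1, a median of 82.1 and a high of 111 in PN1b (0.49, adjusted p = 0.27), so the 3 highest values were those of PN1a 1, PN1a 2 and PN1a 3. A second Ndufv2 probe set had a log2 fold change of -0.53 at intensities of 1.91 to 6.36 over all samples.

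Over the 38 probe sets of complex I the median log2 fold change was -0.10, and 22 were below 0. Lowest was a dim probe set of Ndufa1 at -0.95 (adjusted p = 0.20), with 3.60, 1, 3.78, 3.16 and 3.84 in PN1a and 2.89 to 9.32 in PN1b. The assembly factor Ndufaf1 had 8.11, 9.51, 11.6, 4.53 and 6.32 in PN1a against a low of 2.36, a median of 4.25 and a high of 5.10 in PN1b in one probe set, a log2 fold change of 0.94 (adjusted p = 0.083). Its other probe set had 8, 9, 6.77, 3.71 and 5.35 in PN1a and 4 to 8.75 in PN1b, with the groups overlapping (-0.08, adjusted p = 0.91). The 2 probe sets of this gene therefore differed by 1.01 on the log2 scale.

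Complex II, succinate dehydrogenase, is also an enzyme of the citric acid cycle. Its flavoprotein gene Sdha was measured at 5.28, 4.56, 5.90, 5.46 and 5.13 in PN1a, against a low of 6.06, a median of 8.23 and a high of 9.99 in PN1b. The groups did not overlap, and the difference was -0.62 on the log2 scale (SE 0.17, adjusted p = 0.070). The membrane anchor Sdhd had 65.3, 74.03, 77.2, 64.0 and 64.9 in PN1a against a low of 65.8, a median of 91.5 and a high of 116 in PN1b (-0.40, adjusted p = 0.24). Within title ending set 1 the log2 fold changes of Sdha, Sdhb, Sdhc and Sdhd were -0.76, 0.79, 0.66 and -0.19, and none passed the test.

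The other 2 subunits of complex II differed more within the groups than between them. Sdhc, the second membrane anchor, had 141, 110, 79.9, 70.5 and 47.2 in PN1a, against a low of 48.5, a median of 89.6 and a high of 139 in PN1b. The ranges of Sdhc were almost the same in both groups (adjusted p = 1.0). The iron-sulfur subunit Sdhb had 174, 112, 95.7, 96.3 and 93.1 in PN1a against a low of 58.9, a median of 81.3 and a high of 117 in PN1b (log2 fold change 0.42, adjusted p = 0.37). PN1a 1 was the highest sample for Sdhb and for Sdhc.

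No member of complex III was called, and no member of it reached 1.5-fold. Uqcr11, a small accessory subunit, had 56.9, 45.6, 56.1, 58.9 and 40.8 in PN1a, against a low of 46.5, a median of 78.6 and a high of 109 in PN1b (-0.56 on the log2 scale, SE 0.23, adjusted p = 0.21). PN1b 6, at 46.5, lay among the PN1a samples. Uqcrb, which lies near the ubiquinone site, had 57.7, 57.7, 62.2, 66.3 and 86.8 in PN1a against a low of 52.3, a median of 76.5 and a high of 107 in PN1b (-0.24, adjusted p = 0.59). The core proteins Uqcrc1 and Uqcrc2 had log2 fold changes of 0.22 and 0.17, and Uqcrh, Uqcrq and Uqcr10 of -0.10, 0.07 and -0.02.

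Cytochrome c, which carries electrons between complexes III and IV and is released from mitochondria in apoptosis, had 1 probe set. Its gene Cycs was measured at 3.73, 15.1, 21.3, 23.4 and 37.0 in PN1a, against a low of 18.4, a median of 26.4 and a high of 29.4 in PN1b. PN1a held both the lowest and the highest sample. The difference on the log2 scale was -0.66 (SE 0.45, adjusted p = 0.46) over all samples and 0.06 without PN1a 1 and PN1a 2.

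Complex IV held the lowest and the highest log2 fold change of all members, both in isoforms of testis and both in dim probe sets. The called probe set of Cox6b2, the testis form of subunit VIb, had 1.52, 1, 1.23, 1 and 1 in PN1a, against a low of 1.72, a median of 3.23 and a high of 4.03 in PN1b. In PN1a 2, PN1a 4 and PN1a 5 it was at 1, the lowest value of the table, and no sample was above the median intensity of its array. Its log2 intensity was 0.18 ± 0.27 in PN1a (SD, n = 5) and 1.55 ± 0.46 in PN1b (SD, n = 6), a difference of -1.38 (SE 0.24, limma adjusted p = 0.0093). With 16 added to every value before taking log2 it was -0.15 and no longer called (adjusted p = 0.068). The brightest probe set of Cox6b2 had 18.9, 18.8, 18.4, 16.6 and 21.1 in PN1a and 17.9 to 24.4 in PN1b (-0.16, adjusted p = 0.63), and the third was higher in PN1a, with 23.6, 23.3, 16.9, 11.7 and 9.92 against 6.68 to 12.1 in PN1b (0.73, adjusted p = 0.15). The 3 probe sets of the gene thus spanned 2.11 on the log2 scale.

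Cox8c, the testis form of subunit VIII, had 7.67, 6.92, 4.79, 5.58 and 2.75 in PN1a against a low of 1.11, a median of 1.76 and a high of 5.10 in PN1b in a dim probe set (log2 fold change 1.39, adjusted p = 0.074). PN1a 3 and PN1a 5 lay below PN1b 5, and PN1b 4 lay above PN1a 5. The probe set was called higher without PN1a 5 (adjusted p = 0.0436) and without PN1b 5 (adjusted p = 0.0181). Its brighter probe set had 20.5, 38.1, 23.8, 23.8 and 24.8 in PN1a and 21.1 to 30.7 in PN1b, a log2 fold change of 0.05. Cox6c was among the brightest members. Its main probe set had 286, 313, 307, 271 and 393 in PN1a, against a low of 391, a median of 457 and a high of 588 in PN1b (-0.57, adjusted p = 0.095), so that PN1a 5 alone overlapped PN1b. The other Cox6c probe sets were at or below 9.85, with log2 fold changes of 0.70 and -0.19.

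Tissue isoforms of complex IV were compared within each gene only, since intensities of different probe sets have no common scale. Cox6a1, the form of most tissues, had 258, 236, 236, 234 and 244 in PN1a, against a low of 286, a median of 314 and a high of 402 in PN1b (log2 fold change -0.43, adjusted p = 0.16), with no overlap. Cox6a2, the heart and skeletal muscle form, had 5.66, 3.86, 3.10, 4.56 and 3.51 in PN1a and 2.57 to 5.54 in PN1b (-0.01, adjusted p = 0.99). Cox7a2, the form of most tissues, had 141, 218, 155, 152 and 197 in PN1a, against a low of 181, a median of 260 and a high of 350 in PN1b (-0.55, adjusted p = 0.17). PN1a 2 and PN1a 5 lay within the range of PN1b.

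The muscle form Cox7a1 was dim, with 4.14, 2.87, 2.13, 2.04 and 2.48 in PN1a and 1.18 to 3.51 in PN1b (0.34, adjusted p = 0.55). Cox8a, the form of most tissues, was measured by a probe set of 4.11, 4.96, 3.51, 3.58 and 6.28 in PN1a and 1 to 4.35 in PN1b (1.2, adjusted p = 0.097). Cox8b, the muscle form, had log2 fold changes of 0.30 and 0.23 in its probe sets, the brighter at 6.96, 12.6, 7.16, 5.58 and 6.02 in PN1a and 4.32 to 7.94 in PN1b. Of the pair Cox4i1 and Cox4i2, Cox4i1 alone was among the members. Its probe sets had 10.9, 4.89, 11.2, 13.1 and 13.5 in PN1a against 11.9 to 17.4 in PN1b (-0.51, adjusted p = 0.31), and 8.22, 10.8, 8.17, 4.96 and 8 in PN1a against 5.21 to 9.25 in PN1b (0.17, adjusted p = 0.74). Cox6b1, the somatic partner of Cox6b2, had 5.74, 7.36, 6.32, 5.03 and 4.47 in PN1a and 2.01 to 7.16 in PN1b (0.41, adjusted p = 0.47). None of these pairs had a called member apart from the dim Cox6b2 probe set.

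In complex V, Atp5l, a subunit of the membrane part of the ATP synthase, had 278, 278, 355, 298 and 347 in PN1a, against a low of 377, a median of 477 and a high of 622 in PN1b. All PN1a samples lay below PN1b, and the difference was -0.62 on the log2 scale (SE 0.18, adjusted p = 0.079). Atp5l was called lower with log2(value + 16) (adjusted p = 0.0248), among probe sets above the median level (0.0355), with a variance trend and robust estimation (0.0378) and without PN1b 5 (0.0489). Its second probe set had 1.66 to 5.35 over all samples and a log2 fold change of -0.23.

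Atp5md, a small subunit linked to pairs of ATP synthase, had 252, 292, 292, 260 and 307 in PN1a, against a low of 302, a median of 402 and a high of 498 in PN1b (log2 fold change -0.46, adjusted p = 0.18), with PN1a 5 above the lowest PN1b sample. Atp5a1, the alpha subunit of the catalytic head, had 208, 208, 204, 209 and 215 in PN1a, against a low of 232, a median of 271 and a high of 290 in PN1b (-0.33, adjusted p = 0.25). Its groups did not overlap and its SD within PN1a was 0.03 on the log2 scale. Atp5o, of the stalk that holds the head, had 176, 115, 110, 95.7 and 79.3 in PN1a and 78.8 to 119 in PN1b (0.25, adjusted p = 0.57), with PN1a 1 highest. Over the 22 probe sets of complex V the median log2 fold change was -0.18, and 16 were below 0. Those of complexes I, II, III and IV were -0.10, -0.20, -0.02 and 0.05. These medians were not stable, since among probe sets above the median level that of complex IV was -0.19 and that of complex II 0.00, and with quantile normalization repeated that of complex III was 0.09.

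The members also varied by sample within each group. Among the 51 members with a mean intensity of at least 30 the highest sample was at the median 1.46 times the lowest within PN1a and 1.58 times within PN1b. The widest spread within PN1a was that of Ndufb8, an accessory subunit of complex I, at 3.48-fold, and the widest within PN1b that of Sdhc, at 2.87-fold. Ndufb8 had 151, 175, 84.4, 73.5 and 50.2 in PN1a, against a low of 47.8, a median of 93.0 and a high of 133 in PN1b (log2 fold change 0.12).

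Both moved with a control of the array that reports on RNA and labelling quality, the intensity of Gapdh probes at the 5′ end of the transcript over those at its 3′ end. This ratio was 1.21, 1.13, 0.570, 0.578 and 0.240 in PN1a 1 to PN1a 5, and 0.801, 0.790, 0.732, 0.646, 0.460 and 0.192 in PN1b 1 to PN1b 6. Sdhc had 141, 110, 79.9, 70.5 and 47.2 in the PN1a samples and 139, 105, 114, 74.5, 57.7 and 48.5 in the PN1b samples, listed in the same order. The samples with the lowest ratio in each group, PN1a 5 and PN1b 6, had the lowest Sdhc and the lowest Ndufb8 of their group. Ndufv1 was likewise lowest in these samples, at 85.6 in PN1a 5 and 60.1 in PN1b 6. Within PN1a the ratio did not order Ndufb9, which was 39.1 in PN1a 1 and 44.6 in PN1a 5, the samples with the highest and lowest ratio. In PN1b it was 77.2 to 103 in PN1b 1 to PN1b 4, and 65.8 and 80.4 in PN1b 5 and PN1b 6. These genes were chosen after their values were seen, and the part of RNA quality in their levels was not tested.

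**Figure D3:**
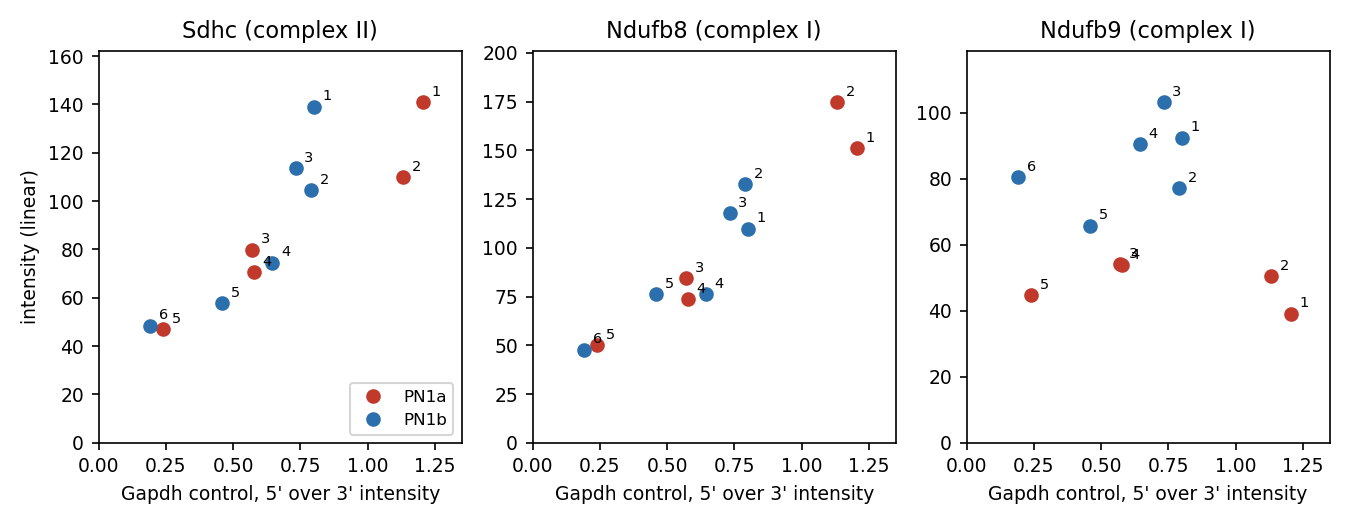
Linear intensity of Sdhc, Ndufb8 and Ndufb9 in each sample (numbers are sample numbers, 5 PN1a and 6 PN1b) against the Gapdh 5′ over 3′ intensity ratio of its array. Sdhc and Ndufb8 are low where the ratio is low in both groups, with Sdhc at 47.2 in PN1a 5 and 48.5 in PN1b 6. The PN1a samples of Ndufb9 lie below PN1b, which follows from its choice as a called member without overlap.

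The title endings divided PN1b. Set against the average over all 11 samples, the mean log2 level of the 99 members was -0.13 to 0.07 in PN1a. It was -0.12 and -0.02 in PN1b 5 and PN1b 6, which share their ending with PN1a, and 0.03 to 0.14 in PN1b 1 to PN1b 4. For complex I the mean was -0.16 to 0.09 in PN1a, -0.14 and -0.04 in PN1b 5 and PN1b 6, and 0.06 to 0.15 in PN1b 1 to PN1b 4. Complexes II and III showed the same division of PN1b. For complex II the means were -0.38 to 0.25 in PN1a, -0.25 and -0.16 in PN1b 5 and PN1b 6, and 0.07 to 0.37 in PN1b 1 to PN1b 4. Complexes IV and V and cytochrome c did not divide in this way. For complex IV PN1b 5 and PN1b 6 were at 0.01 and -0.04 and PN1b 1 to PN1b 4 ran from -0.17 to 0.15. For complex V PN1b 5 and PN1b 6 were at -0.18 and 0.11 and PN1b 1 to PN1b 4 ran from 0.05 to 0.15. The Gapdh ratio was also higher in PN1b 1 to PN1b 4 (0.646 to 0.801) than in PN1b 5 and PN1b 6 (0.460 and 0.192), and its part in this division was not tested.

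**Figure D4:**
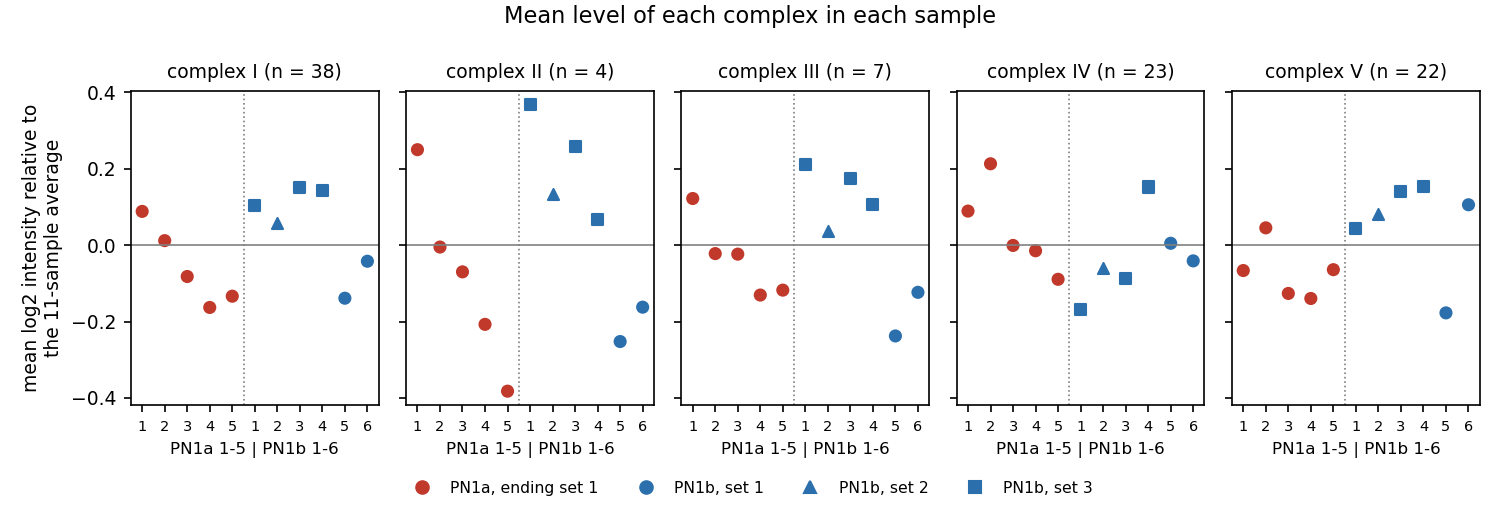
Mean log2 intensity of the probe sets of each complex by sample, set against the average over all 11, for 5 PN1a (left of the dotted line) and 6 PN1b samples, with a symbol for each title ending set. For complexes I, II and III the PN1b samples of sets 2 and 3 lie above the PN1b samples of set 1.

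Within title ending set 1, with 5 PN1a and 2 PN1b samples, 0 members were called. The share called over all probe sets in this fit is not given here. Calls outside the respiratory chain were lost as well. The macrophage gene Aif1 had a limma adjusted p of 0.0041 over all samples and of 0.51 within set 1. The median log2 fold change of the members was 0.02 there, against -0.01 over all probe sets, and that of complexes I, II, III, IV and V was 0.06, 0.23, 0.13, 0.01 and -0.07. Ndufb9 had a log2 fold change of -0.60 (adjusted p = 0.68), Sdha -0.76 (0.60), Cox6b2 -1.08 (0.58), Cox6a1 -0.51 (0.68), Atp5l -0.38 (0.73) and Atp5a1 -0.37 (0.71). They were chosen as members without overlap over all samples, which fixes their direction here, and none passed the test with 2 PN1b samples. With the ending as a random block, Cox6b2 alone was called, and Ndufb9 had a log2 fold change of -0.77 (adjusted p = 0.0595).

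Other genes of the mitochondrion and of fuel use were read from lists, whose members exclude the respiratory chain probe sets above. Of 27 probe sets of the citric acid cycle 0 were called, with a median log2 fold change of -0.25. Citrate synthase, Cs, had 72.0, 65.8, 92.4, 67.2 and 78.8 in PN1a and 79.9 to 123 in PN1b (-0.51, adjusted p = 0.14). PN1b 5 and PN1b 6 had its lowest PN1b values, 79.9 and 91.1, and within title ending set 1 the log2 fold change was -0.19. Of 20 probe sets of fatty acid oxidation 0 were called, and Acadm, the medium-chain acyl-CoA dehydrogenase, came nearest, with a log2 fold change of -0.94 (adjusted p = 0.050, just above the threshold). Of 23 glycolysis probe sets 2 fell and 0 rose, both of Pfkp, the platelet form of phosphofructokinase (-1.84, adjusted p = 0.0074, and -1.61, adjusted p = 0.026). The median of the glycolysis list was -0.52 over all samples and 0.02 within title ending set 1. Ckmt1, the mitochondrial creatine kinase of the intermembrane space, fell by 2.31 on the log2 scale (adjusted p = 0.026) and was the only called probe set of 22 for carriers and channels. It had 4.20, 16.2, 22.2, 17.5 and 14.4 in PN1a, against 89.9 to 104 in PN1b 1 to PN1b 4 and 28.1 and 29.4 in PN1b 5 and PN1b 6. Of 76 probe sets of the mitochondrial ribosome 1 fell, that of Mrpl48 (-0.77, adjusted p = 0.0415), and 0 rose, with a median of 0.11. None of these calls held within title ending set 1, where the log2 fold change was -1.14 for Ckmt1 (adjusted p = 0.68), -1.27 and -0.90 for Pfkp (0.60 and 0.68) and -0.78 for Mrpl48 (0.61).

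No probe set was called among 11 for other subunits and electron carriers (median -0.08), 14 for assembly and copper delivery (0.00), 33 for regulators of mitochondrial biogenesis (-0.13), 19 for protein import (-0.03), 48 for the cytosolic ribosome (0.06), 48 for the proteasome (0.30) or 15 for antioxidant enzymes (0.12). Among the regulators the hypoxia factor gene Hif1a had the smallest adjusted p, with a log2 fold change of -1.30 (adjusted p = 0.079) and 93.1, 36, 104, 120 and 145 in PN1a against 129 to 345 in PN1b. Etfa, which brings electrons from fatty acid oxidation to ubiquinone, had a log2 fold change of -0.79 (adjusted p = 0.094).

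**Figure D5:**
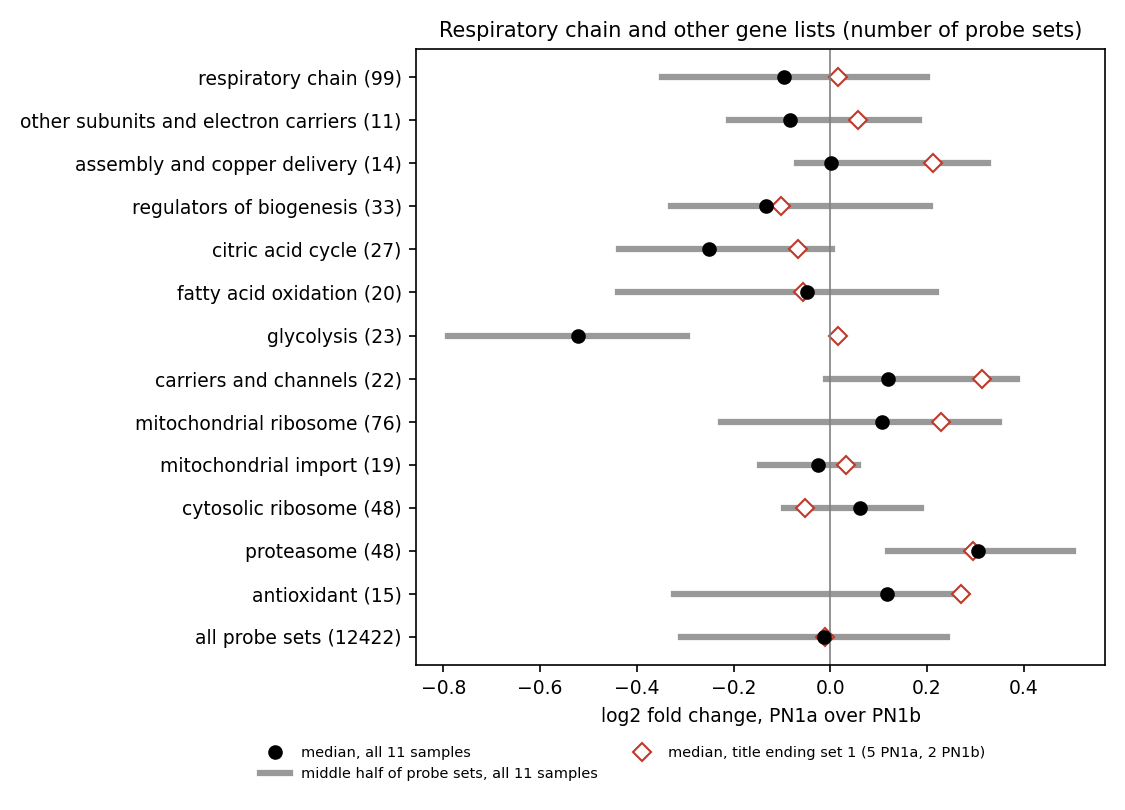
Median log2 fold change (PN1a over PN1b) of the respiratory chain and of other gene lists over all 11 samples (black, with bars between the quartiles of the probe sets) and within title ending set 1 (diamonds), with the number of probe sets in brackets. The respiratory chain lies at -0.10 and 0.02, and glycolysis at -0.52 and 0.02.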

How the data were processed

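The dataset consists of 1 table of linear intensity values for 11 samples (5 PN1a, 6 PN1b) and 12488 probe sets of the Affymetrix MG_U74Av2 array. Per the methods, the authors obtained these deposited intensities with the PM-MM model of dChip, quantile normalized; the dChip version is not stated. The table has no detection calls, and 0.817% of values equal its lowest value, 1. After the 66 controls were set aside, log2 was taken with no pseudocount. Through the platform annotation 10833 probe sets had 1 symbol, 396 several and 1193 none.

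Groups were compared with limma 3.58.1 under R 4.3.3 (two-sided lmFit and eBayes without covariate), with Benjamini-Hochberg adjustment over all 12422 probe sets. Calls needed an adjusted p below 0.05 with a 1.5-fold difference or more. Lists are described by counts and medians and were not tested. The number of arrays limits the precision. Whether samples are separate mice is not stated in the labels, so errors and p-values cover the spread of these samples, which may be technical. At most 1.24% of values were identical between any pair of samples.

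The members and lists were chosen with earlier results of these data known. Values per sample are given for every called member, the 2 members of each complex with the smallest adjusted p, the tissue isoforms of complex IV, and genes whose probe sets differ by more than 1 in log2 fold change, with up to 3 genes for a list. Members without overlap, those of the Gapdh ratio, the brighter Ndufa3 probe set, Sdhb, Atp5o, Uqcrc1, Ndufs1 and Ndufa1 were added after their values were seen. The alternatives were the title ending as a fixed or random block or set 1 alone, quantile normalization repeated, centring, log2(value + 16), probe sets above the median level, eBayes with trend and robust, the methods' t-test, no fold threshold, 1 probe set per gene, each sample left out, and, chosen after seeing the data, PN1a 1 and PN1a 2 left out together. The steps were tested on simulated data. Figures were drawn with matplotlib 3.10.9.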

Additional observations from a re-analysis of the deposited data

Results flagged for a closer look

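Of 80 groups of samples checked for a sample far from the others (40 probe sets, PN1a and PN1b apart), 2 had one, where chance gives about 1 in 20. A dim probe set of Cox4i1 was at 4.89 in PN1a 2, against 10.9 to 13.5 in the other PN1a samples. A dim probe set of Ndufv2 was at 2.77 in PN1b 2, against 5.43 to 6.36 in the other PN1b samples.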

How the results depend on the processing

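No paired analysis was made, since no label links a PN1a sample to a PN1b sample. The number of members called lower was 2. It was 0 with the title ending as a fixed block and within set 1, 1 with the ending as a random block and without PN1a 1 and PN1a 2, 5 with the methods' t-test at its own threshold (3 after Benjamini-Hochberg), 3 with trend and robust estimation, and 1 to 3 with 1 sample left out (1 without any of PN1a 1, PN1a 3, PN1a 4, PN1a 5, PN1b 1, PN1b 3 or PN1b 4). The number called higher was 0, with 1 under the methods' t-test, and 0 to 1 with 1 sample left out. The median log2 fold change of -0.10 was 0.017 with the ending as a fixed block and within set 1, -0.035 with quantile normalization repeated, -0.037 with centring, -0.025 with log2(value + 16), and -0.14 to -0.03 with 1 sample left out. The cause of these changes was not tested, and set 1 has only 2 PN1b samples. Since the other sets hold PN1b samples only, the fixed block gives the same log2 fold changes as set 1 alone. These settings are therefore not separate checks, here or for the changes of sign below.

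Some members that were not called changed sign. With the ending as a fixed block and within set 1, Cox4i1 was at -0.22, Cox6a2 at 0.12, Ndufaf1 at 0.43 and Sdhc at 0.66, and with the ending as a random block Cox6a2 was at 0.0038 and Sdhc at 0.098. Sdhc was at 0.079 with quantile normalization repeated and 0.059 with centring, where Cox6a2 was at 0.052. Without PN1a 1 and PN1a 2 the values were -0.012 for Cox4i1, -0.010 for Cox8b, -0.037 for Cox8c, 0.062 for Cycs, -0.38 for Ndufb8 and -0.02 for Ndufv1. With 1 sample left out, Cox6a2 ran from -0.14 to 0.089, Cox8c (brighter probe set) from -0.094 to 0.13, Ndufaf1 (second probe set) from -0.22 to 0.11, Ndufb8 from -0.092 to 0.36, Ndufv1 from -0.044 to 0.21 and Sdhc from -0.19 to 0.21.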
